A study of Mus musculus with 13 samples.

Results

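Within the 13 RNA sequencing libraries of back skin epidermal stem cells from Fbln7 mice, the 7 libraries of 1-year animals fall on 2 sides. In 4 of them (1-year WT replicate 3 and 1-year KO replicates 2, 3 and 4) transcripts of cells other than basal keratinocytes are abundant, and in the other 3 (1-year WT replicates 1 and 2 and 1-year KO replicate 1) they are scarce. They are called the 4 high and the 3 low libraries here. The libraries of each side were chosen by the read counts of these same libraries, among them those of Krt1, Krt10, Cd3g, Col6a2 and Col17a1, so a difference between the sides is a description with no test. The groups of the labels are Fbln7 WT at 1 year (3 libraries), Fbln7 KO at 1 year (4), Fbln7 WT at 2 months (3) and Fbln7 KO at 2 months (3). Every library came from back skin epidermis of the strain written C57BI/6 in the labels. Skin was digested with trypsin, and cells were stained, sorted by flow cytometry and lysed in Trizol. Libraries were made with a low-input stranded total RNA kit. The labels give neither the antibodies of the sort, nor the sex of the animals, nor the part of Fbln7 that is deleted, nor whether the deletion is confined to a tissue. Nothing in them says whether animals were pooled. P-values therefore measure the spread between these libraries, which the labels' replicate numbers present as separate samples.

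The interfollicular epidermis is a layered epithelium. Basal keratinocytes, which hold the stem cells, express Krt5 and Krt14 and are anchored to the basement membrane by hemidesmosomes built from integrin alpha6 beta4, plectin, dystonin and collagen XVII. A cell that leaves this layer switches to Krt1 and Krt10 in the spinous layer. It then makes filaggrin, loricrin and lipid-processing enzymes in the granular layer, and ends as a cornified cell. Langerhans cells and, in mice, dendritic epidermal T cells with an invariant gamma-delta receptor sit between the keratinocytes. Hair follicles and sebaceous glands continue the same epithelium downwards.

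The names of the deposited tables carry 3 different tokens. They are treated as runs A, B and C, though the labels do not say what a token marks. Run could not be separated from side for most libraries. In run A there were only libraries of 2-month animals, 4 in number. Run B contained the 3 low libraries and 1 high one, 1-year KO replicate 2. The other 3 high libraries were in run C, beside 2 libraries of 2-month animals. Run B libraries had 7585340 to 8189922 total gene reads, and run C libraries 9875436 to 11592177. The ribosomal RNA gene Rn18s took 13.1 to 14.4% of them in the first and 2.53 to 4.85% in the second. Mitochondrial genes took 10.9 to 12.03% of reads in the 1-year libraries of run C, against 6.90 and 8.60% in its 2-month libraries. In run B they took 7.44 to 8.50% in the low libraries and 8.17% in 1-year KO replicate 2, and the part of this share in the results was not tested. Libraries of different runs differed more in counts (chi-square per degree of freedom 126 to 171 within a genotype at 1 year) than libraries of 1 run (16.9 to 26.1), also where the latter lay on opposite sides. Per length, on the deposited TPM scale, the basal keratins Krt14 and Krt5 had mean levels of 5886 and 5742 TPM in the low libraries, against 885 TPM for Krt10. In the high libraries these levels were 5061, 4804 and 3017 TPM, so basal keratins were the more abundant on both sides.

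A library of run B was set against the 3 others of its run in the first comparison. A gene was counted there when 1-year KO replicate 2 lay outside the range of the 3 low libraries and at least 1 log2 unit from their mean. Of 14379 genes that passed the filter on low counts, 1118 were counted higher (7.78%) and 623 lower (4.33%). For all 7 libraries, a gene was counted when the 4 high libraries did not overlap the 3 low ones and the difference fitted with run as a term reached 1 log2 unit. This held for 814 genes in the higher direction (5.66%) and 198 in the lower (1.38%), the latter 304 without 1-year WT replicate 1 and 369 without 1-year KO replicate 1. A gene scarce in the low libraries passed the filter only through the high ones and had to differ, so counts over the genes that passed are partly set by the filter. Because run C has no low 1-year library, the fitted size of that difference rests on run B alone. Beside these descriptions stands a test that follows the labels and uses none of the run B libraries: 1 year (3 libraries) against 2 months (2 libraries) within run C, by the edgeR quasi-likelihood test. It called 1179 of 15348 genes higher at 1 year (7.68%) and 428 lower (2.79%) at an adjusted p under 0.05. Here too, a gene scarce in the 2-month libraries passed the filter only through the 1-year ones. These counts were 421 and 104 without 2-month WT replicate 3, 510 and 168 without 2-month KO replicate 3, and 668 and 146 without 1-year WT replicate 3.

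Age and the extra transcripts cannot be told apart in run C, since all 3 of its 1-year libraries are high ones, and these libraries were grouped with results known. Suprabasal, T cell and fibroblast transcripts formed the sides, so p-values of such genes in run C give the split no independent support. Xist, the RNA that coats the inactive X chromosome of females, differed in part with age and the extra transcripts in run C. Both 2-month libraries of run C had many Xist reads (12695 and 10891), as did 1-year KO replicate 3 (13317), while 1-year WT replicate 3 had 8 and KO replicate 4 had 5. On the low side there were 4948, 48 and 57 Xist reads, and 1-year KO replicate 2 had 3743, so both sides held high and low values. Their part in the results was not tested.

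The comparisons in run B and run C share no library. The high libraries of both were, however, placed together for the same kinds of transcript, so agreement in the higher direction was partly set by that choice. Of 13940 genes measured in both, 1102 were counted higher in run B and 1144 in run C, and 552 were in both lists, which is 50.1% of the first and 48.3% of the second. Among all of these genes 8.21% were called higher in run C and 7.91% were counted higher in run B. The lower genes overlapped less: 39 were shared between 613 in run B and 424 in run C, which is 6.36% and 9.20% of the lists, beside 3.04% and 4.40% of all genes. A gene counted lower in run B was called higher in run C in 4 cases, and a gene counted higher was called lower in 1 case. Over the 13940 genes the log2 differences of both runs had a Pearson correlation of 0.585 and a Spearman correlation of 0.518, where genes are not independent replicates. The median over all genes was -0.02 in run B and 0.00 in run C on the log2 scale.

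**Figure D1:**
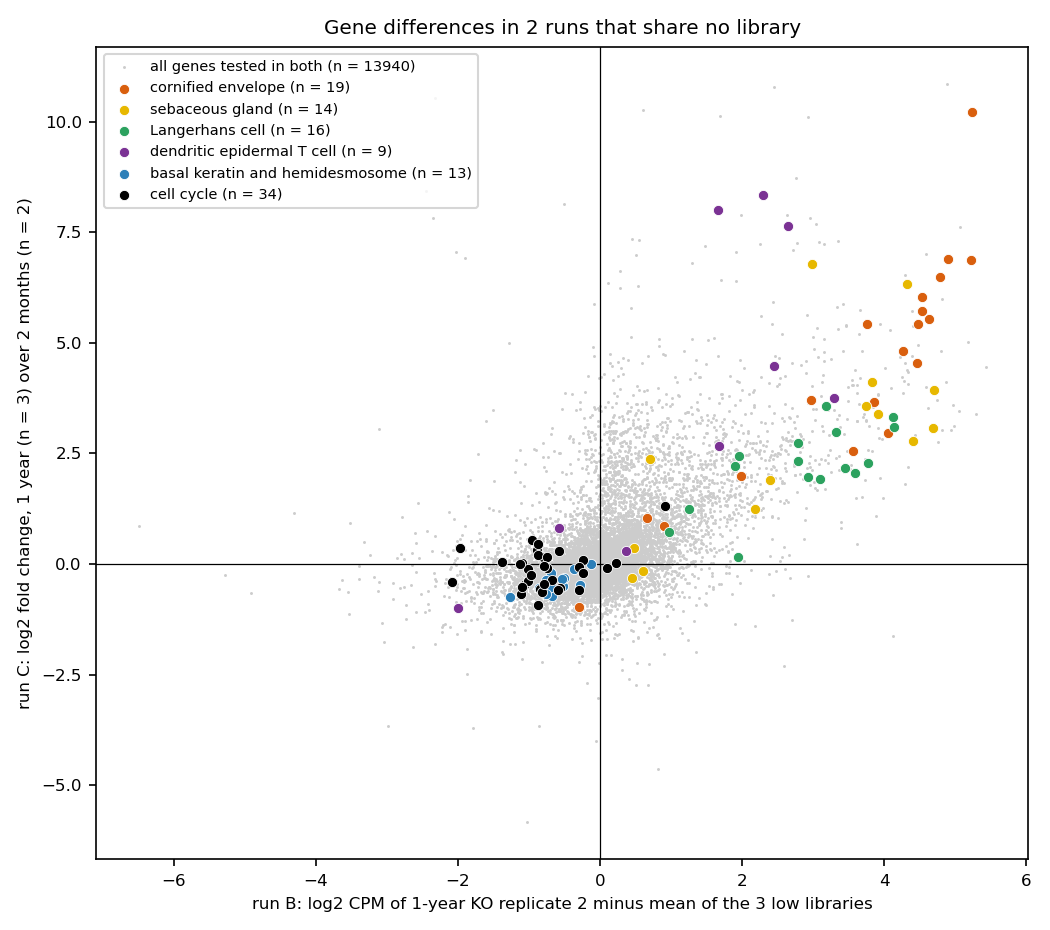
Each point is a gene, with its log2 CPM difference between 1-year KO replicate 2 and the mean of the 3 low libraries of run B on the horizontal axis and its log2 fold change of 3 libraries at 1 year over 2 at 2 months in run C on the vertical axis. Grey points are the 13940 genes measured in both, and colours mark 6 gene lists. Cornified envelope, sebaceous and Langerhans genes lie mostly at the upper right, basal genes lie near the origin at the lower left, and cell cycle genes lie left of 0 with vertical values on both sides of 0.

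In what follows, levels are CPM, counts scaled to library size with TMM factors over all 13 libraries. Values of the low libraries are given in the order 1-year WT replicate 1, WT replicate 2 and KO replicate 1. Values of the high libraries are given in the order KO replicate 2, WT replicate 3, KO replicate 3 and KO replicate 4. For run C, fold changes are on the log2 scale, 1 year over 2 months, and each carries its standard error (SE). A bulk library does not tell fewer cells of a type from less RNA per cell, which holds for every gene group below. Genes are named by list membership and level where possible, and the remaining ones were chosen after their values were seen. The shares of all genes to set beside the counts of a list were 5.66% higher and 1.38% lower over the 7 libraries. They were 7.78% and 4.33% in run B and 7.68% and 2.79% in run C. The sides did not overlap in 12.3% of all genes in the higher direction and 9.54% in the lower.

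Of the 5 genes by which the split is known, 3 were high in all 4 high libraries and low in all 3 low ones. Krt10 (chromosome 11, 99385254 to 99389364, minus strand, build GRCm38) was at 839.9, 824 and 916 CPM in the low libraries and at 1841, 2948, 1938 and 3061 CPM in the high ones. Cd3g, a chain of the T cell receptor complex (chromosome 9, 44969572 to 44980431, minus strand), was at 0.245, 1.44 and 0.414 CPM and then at 8.11, 5.69, 8.68 and 7.36 CPM. Col6a2, a collagen VI chain (chromosome 10, 76595762 to 76623630, minus strand), was at 0.490, 1.88 and 0.689 CPM and then at 6.29, 4.03, 6.54 and 7.36 CPM. The sides did not overlap for any of these 3 genes. Col17a1, the hemidesmosomal collagen XVII (chromosome 19, 47646344 to 47692094, minus strand), ran the other way without overlap, from 2421, 2173 and 2037 CPM in the low libraries to 1307, 1630.1, 1469 and 1406 CPM in the high ones.

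Krt1 (chromosome 15, 101845426 to 101850794, minus strand) did not separate the sides. Its level was 594, 650.3 and 846 CPM in the low libraries and 831, 1987, 1015 and 2182 CPM in the high ones, so that 1-year KO replicate 1 lay above KO replicate 2. Over the libraries of 2-month animals Krt1 ranged from 698 to 1444 CPM, which overlaps both sides. The values of the 5 genes in the 1-year libraries of run C were among those that placed these libraries on the high side, so no test of them in run C is given. The counts of their lists below include them, with Krt1, Krt10, Cd3g and Col6a2 among the genes that rose in run C. Those counts are therefore a description and not support for the split. The log2 difference in run C was 1.32 ± 0.29 for Krt1 and 1.56 ± 0.21 (SE) for Krt10, its partner in the spinous keratin filament.

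**Figure D2:**
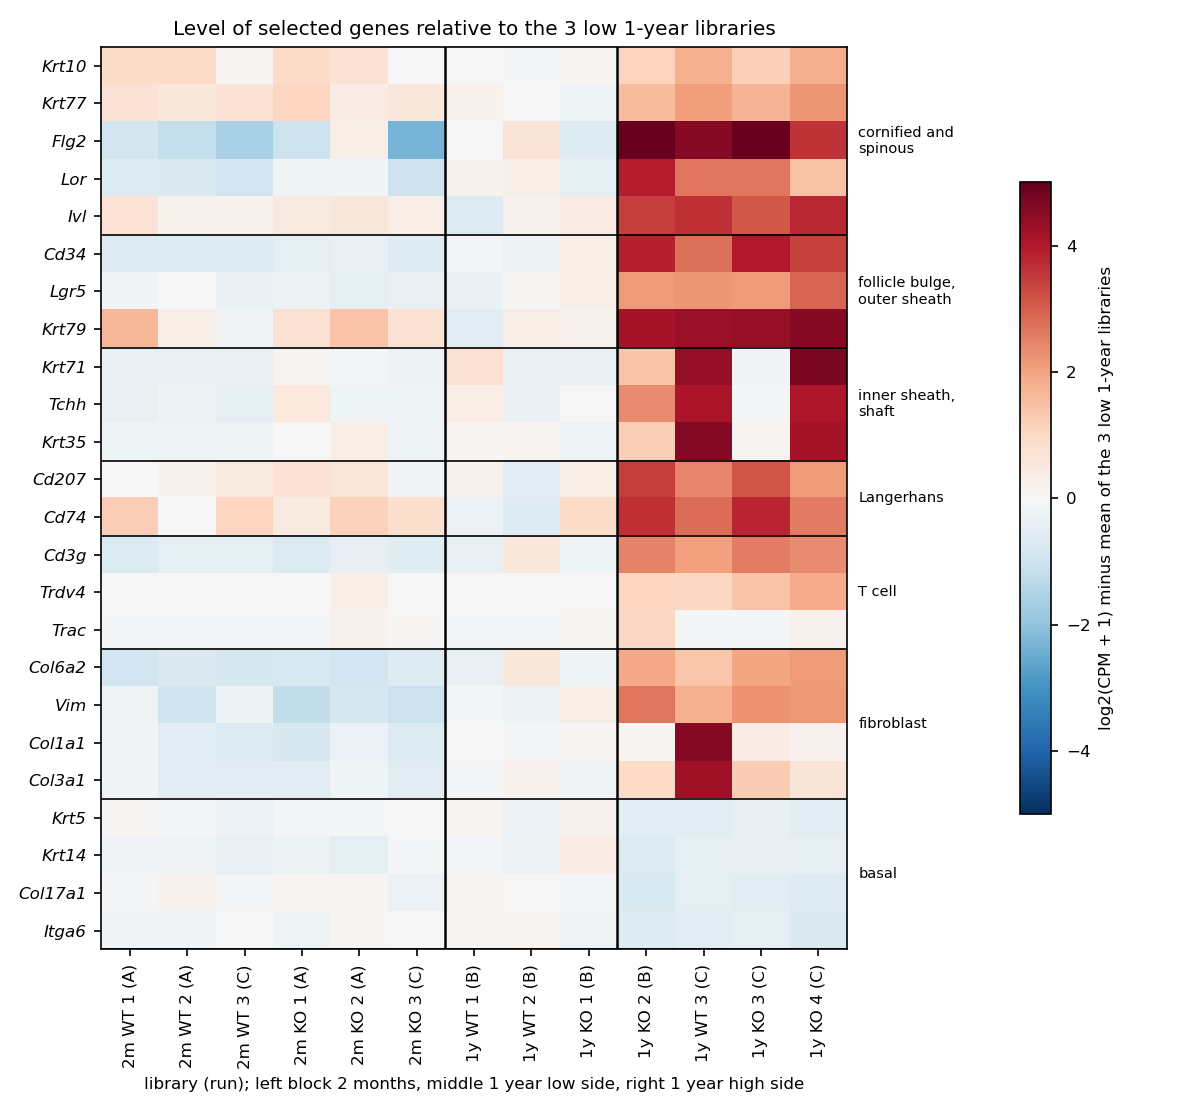
Colours give log2(CPM + 1) of selected genes in all 13 libraries, minus the mean of the 3 low 1-year libraries, and are clipped at 5 units either way; the run is in brackets after each library. The 4 rightmost columns are red for the spinous, cornified, bulge, Langerhans and most T cell genes and pale blue for basal genes, while inner root sheath genes and Col1a1 are dark red in only some of them.

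Spinous genes were mostly higher in the high libraries. Of 16 listed genes 15 passed the filter, 11 were counted higher in the 7-library comparison and none lower, and the median difference over all 16 in run B was 1.44 log2 units, against -0.02 for all genes. In run C 13 of 15 rose and none fell. The summed level of the list was 3179, 3330.0 and 3494 CPM in the low libraries and 6889, 10537, 7354 and 11422 CPM in the high ones. In the libraries of 2-month animals it was 3866 to 5447 CPM, above every low library and below every high one. Krt77, a keratin of suprabasal cells, was at 794, 717 and 607 CPM and at 2088, 2972, 2261 and 3249 CPM, and Krtdap, a secreted protein of stratified epithelium, was at 27.3, 34.8 and 42.2 CPM and at 150.4, 209.7, 168 and 257 CPM. Neither overlapped between sides. Their run C log2 fold changes were 1.37 ± 0.19 and 1.97 ± 0.19 (SE), with edgeR adjusted p-values of 0.00198 and 0.000253. Dsc1, a desmosomal cadherin of the upper layers, went from 3.43, 8.95 and 8.82 CPM to 101, 103, 97.5 and 142 CPM, with a log2 change in run C of 3.84 ± 0.21 (SE; edgeR adjusted p = 1.78e-05). Dsg1a, its desmoglein partner, showed a smaller step, 420.4, 506 and 460.0 CPM against 642, 912, 731 and 966 CPM. Serpinb2, a protease inhibitor, stood apart from the list with 257, 315 and 322 CPM in the low libraries and 149.8, 211, 198 and 219 CPM in the high ones, and did not pass in run C (edgeR adjusted p = 0.19).

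Transcripts of the cornified envelope were scarce in the low libraries and abundant in the high ones. Of 39 listed genes 6 had no read in any 1-year library and 19 passed the filter. Of those 19, 15 were counted higher and none lower, and in run C 17 of 20 rose and none fell. The summed level was 62.3, 78.95 and 67.3 CPM in the low libraries, 1030.4, 785, 857 and 596 CPM in the high ones and 56.6 to 77.7 CPM over the 6 libraries of 2-month animals. Every high library lay above every other library. The median difference over the 39 genes in run B was 3.35 log2 units, and 4.01 over 31 genes when genes with no read in the low libraries were set at the detection floor of 3 reads over those libraries and genes at or under the floor on both sides were left out.

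Structural proteins and processing enzymes of the cornified cell rose together. Flg2, a filaggrin-like S100 fused-type protein, was at 12.97, 21.2 and 8 CPM in the low libraries and at 492, 330.3, 446 and 171 CPM in the high ones. Lor, which encodes loricrin, the main protein of the envelope, was at 1.84, 2.10 and 0.827 CPM and at 37.5, 14.96, 15.1 and 5.97 CPM. Ivl, encoding involucrin, an early envelope scaffold, was at 1.10, 2.87 and 3.45 CPM and at 35.4, 41.1, 27.4 and 43.6 CPM. Both sides stayed apart for all 3, with 1-year KO replicate 4 the lowest high library for Flg2 and Lor and the highest for Ivl. Sprr1a, a cross-linked envelope precursor, was at 0.979, 0.773 and 1.10 CPM and at 15.4, 17.5, 13.6 and 19.9 CPM. The proteases followed: Klk7, which cuts desmosomes during shedding, was at 1.22, 3.09 and 0.827 CPM and at 39.2, 43.7, 37 and 40.9 CPM, and Asprv1, which processes filaggrin, at 0.857, 1.66 and 1.66 CPM and at 33.9, 39.97, 25.4 and 20.98 CPM. Cdsn, the corneodesmosome adhesion protein, was at 1.22, 3.20 and 1.38 CPM and at 45.7, 31.1, 59.97 and 44.5 CPM. Tgm1, the transglutaminase that cross-links the envelope, was at 0.245, 0.442 and 0.276 CPM and at 9.93, 6.91, 9.08 and 7.50 CPM. In none of these genes did any high library reach down to a low one. In run C the log2 fold changes were 6.88 ± 0.62 for Flg2, 5.43 ± 0.58 for Lor, 3.65 ± 0.27 for Ivl and 6.03 ± 0.38 for Klk7 (SE), with edgeR adjusted p-values of 0.0035, 0.000474, 5.53e-05 and 3.06e-05. The call of Flg2 was lost without either 2-month library, and those of Lor, Ivl, Klk7, Sprr1a, Asprv1, Cdsn and Tgm1 were kept in all 5 fits that left out a library.

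Lor, Ivl and Flg2 lie in the epidermal differentiation complex on mouse chromosome 3, and their upstream sequences are shown because these genes moved together, with the motif of AP-1, a transcription factor known from keratinocyte differentiation, marked where it occurs. The 250 bases before each RefSeq start in build GRCm38.p6 are written 5′ to 3′ on the strand of the gene. Capitals mark TGACTCA or TGAGTCA, the forms of the AP-1 motif on either strand. The windows are chr3:92083143-92083392 (minus strand) for Lor, chr3:92573736-92573985 (minus strand) for Ivl and chr3:93197023-93197272 (plus strand) for Flg2.
Lor: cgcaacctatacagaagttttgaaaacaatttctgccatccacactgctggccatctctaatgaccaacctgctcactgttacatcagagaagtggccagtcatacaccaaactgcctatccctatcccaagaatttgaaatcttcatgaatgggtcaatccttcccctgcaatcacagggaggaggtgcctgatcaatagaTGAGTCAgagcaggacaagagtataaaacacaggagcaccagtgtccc
Ivl: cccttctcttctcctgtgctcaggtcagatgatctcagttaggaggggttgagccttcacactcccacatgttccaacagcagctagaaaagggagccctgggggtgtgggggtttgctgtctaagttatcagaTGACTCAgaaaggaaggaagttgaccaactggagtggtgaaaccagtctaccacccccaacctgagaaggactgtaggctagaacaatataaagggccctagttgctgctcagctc
Flg2: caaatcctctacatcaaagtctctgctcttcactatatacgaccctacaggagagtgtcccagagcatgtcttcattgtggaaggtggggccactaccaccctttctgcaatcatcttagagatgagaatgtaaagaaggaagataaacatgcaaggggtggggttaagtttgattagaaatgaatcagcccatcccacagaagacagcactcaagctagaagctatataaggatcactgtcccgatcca
The windows of Lor and Ivl hold 1 match each, whose first base lies 48 bases before the start in Lor and 116 in Ivl, and these letters are not in the window of Flg2. Of 40 windows of 38 cornified envelope genes 6 hold the motif (15%), among them those of Sprr2d and Sprr2h, which had no read in any 1-year library, and of Sprr2e, which had 1 read in all. Of 14 windows of 11 spinous genes 4 hold it (28.6%), but these belong to only 2 genes, Dmkn and Krtdap. The motif is in 2 of 23 windows of 21 barrier lipid genes (8.7%) and in 0 of 12 windows of 9 basal genes. Over all 32851 windows of 27025 genes the share was 4.46%. A match is a description of the letters and not a measured site.

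Genes of the lipid barrier were higher too. Of 25 listed genes 24 passed the filter, 16 were counted higher and none lower, with a median of 1.30 log2 units in run B over all 25. In run C 19 of 25 rose and none fell, or 12 without 2-month KO replicate 3. The summed level was 346, 452 and 391 CPM in the low libraries and 1019.9, 1136, 1011 and 1168 CPM in the high ones. In the libraries of 2-month animals it was 462 to 534 CPM, above every low library and below every high one. Alox12e, an epidermal lipoxygenase, was at 16.9, 41.6 and 28.7 CPM and at 205, 244, 211 and 244 CPM. Elovl4, which makes the very long fatty acids of barrier ceramides, was at 18.6, 23.9 and 24.3 CPM and at 115, 106, 86.3 and 94.6 CPM. Abca12, the lipid transporter of lamellar granules, was at 57.4, 73.7 and 59.7 CPM and at 168, 203, 165 and 200.1 CPM. These genes did not overlap between sides, and their run C log2 fold changes were 1.27 ± 0.13, 1.86 ± 0.14 and 1.82 ± 0.14 (SE; edgeR adjusted p = 0.000399, 7.13e-05 and 7.13e-05). Sptlc3, a subunit of the enzyme that starts ceramide synthesis, changed less, from 43.2, 51.6 and 38.2 CPM to 80.99, 89.02, 88.02 and 93.5 CPM, and Lipm, a lipase of the granular layer, went from 14.8, 22.4 and 24.8 CPM to 46.9, 59.7, 51.2 and 60.5 CPM.

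A part of the regulators of differentiation was higher. Of 19 listed transcription factors 18 passed the filter, 4 were counted higher and none lower, and in run C 9 of 18 rose and 1 fell, or 5 and none without 2-month KO replicate 3 and 7 and none without 2-month WT replicate 3. Zfp750, which drives terminal differentiation, was at 9.67, 28.05 and 14.8 CPM in the low libraries and at 45.04, 56.1, 41.9 and 69.1 CPM in the high ones. Prdm1, the transcriptional repressor BLIMP1 found in granular cells and in sebaceous cells, was at 0.857, 0.221 and 0.414 CPM and at 9.79, 7.23, 6.28 and 4.88 CPM. Both stayed apart between sides, and rose in run C by 2.19 ± 0.28 and 3.83 ± 0.46 log2 units (SE; edgeR adjusted p = 0.00132 and 0.000851). Klf4, a barrier regulator, was at 257, 256 and 254 CPM in the low libraries and at 271, 351, 316 and 414 CPM in the high ones. Its run C log2 fold change was 0.62 ± 0.15 (SE; edgeR adjusted p = 0.0271), lost without either 2-month library or without 1-year WT replicate 3. Gata3, Hopx and Cebpa were the other members of highest level. Gata3 was at 439.9, 351 and 336 CPM and at 271, 313, 344 and 281 CPM, and Hopx at 49.9, 70.9 and 52.9 CPM and at 52.3, 48.3, 46.3 and 57.99 CPM, both with overlap and neither past the threshold in run C (edgeR adjusted p = 0.0599 and 0.634). Cebpa, which pairs with Cebpb in suprabasal cells, was at 69.8, 50.2 and 82.2 CPM and at 107, 122, 110.3 and 152 CPM.

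Genes of Notch signalling and the calcium receptor showed no common direction. Of 17 listed genes 11 passed the filter, and 1, the Notch target Nrarp, was counted higher and none lower. That is 9.09%, near the 5.66% of all genes. In run C 3 of 12 rose and 2 fell, beside 7.68% of all genes called higher and 2.79% called lower. Without 2-month KO replicate 3, 1-year WT replicate 3 or 1-year KO replicate 4 these counts were 1 and 1, 1 and 1, and 3 and 1, and without 2-month WT replicate 3 they were 3 and none. Notch1, the main receptor of keratinocytes, was at 205, 211 and 167 CPM and at 163, 241, 209 and 253 CPM, with overlapping sides. Notch3 was at 27.2, 32.8 and 28.8 CPM and at 43.2, 73.1, 58.7 and 78.5 CPM, and the Notch target Hes1 at 16.9, 20.98 and 18.6 CPM and at 26.9, 31.8, 24.7 and 28.5 CPM, both without overlap. The ligand Dll1, a marker of stem cell clusters in the basal layer, was at 79.4, 74.2 and 89.3 CPM and at 40.01, 42.1, 42.7 and 46.3 CPM and fell in run C, with a log2 change of -0.73 ± 0.12 (SE; edgeR adjusted p = 0.00512), a call lost without 2-month WT replicate 3. The ligand Jag2 was at 204, 170.3 and 169 CPM and at 118, 132, 172 and 123 CPM, with overlapping sides.

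Hair follicle transcripts of the bulge, the upper follicle and the outer root sheath were part of the extra set. Of 20 listed genes all passed the filter, 10 were counted higher and none lower, with a median of 1.34 log2 units in run B. In run C 14 of 20 rose and none fell, or 9 without 2-month WT replicate 3. The summed level overlapped between sides (3903, 2755 and 3969.8 CPM against 3873, 4615, 4437 and 5122 CPM), and most of it is Krt15, a keratin shared with interfollicular basal cells, at 3634, 2389.7 and 3588 CPM and at 2757, 3550.1, 3259.8 and 3888 CPM. Krt79, a keratin of the upper follicle and gland duct, was at 6.73, 12.6 and 11.9 CPM and at 198, 221, 223 and 259 CPM. Krt17, a keratin of the outer root sheath, was at 52.7, 50.6 and 58.2 CPM and at 330.1, 369, 386 and 506 CPM. Defb6, a beta-defensin, was at 2.20, 5.41 and 3.45 CPM and at 55.5, 78.5, 73.9 and 102 CPM. All 3 stood clear of overlap, with log2 fold changes in run C of 4.15 ± 0.26, 2.81 ± 0.21 and 2.86 ± 0.47 (SE; edgeR adjusted p = 3.42e-05, 5.65e-05 and 0.0204), and the call of Defb6 was lost without 1-year KO replicate 4.

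Stem cell markers of the follicle were among them. Cd34, the surface marker of mouse bulge stem cells, had 0.490, 0.331 and 0.965 CPM in the low libraries and 22.4, 9.53, 24.1 and 15.7 CPM in the high ones. It had no read in either 2-month library of run C and passed the filter there only through the 1-year ones, so no fold and no test is given. Lgr5, a receptor of cycling follicle stem cells, was at 0.367, 0.773 and 1.10 CPM and at 6.58, 7.04, 6.54 and 11.9 CPM. Lhx2, a transcription factor of the bulge, was at 0.734, 1.55 and 0.414 CPM and at 20.3, 12.1, 18.6 and 12.3 CPM. Sox9, which keeps the follicle stem cell state, was at 7.71, 6.07 and 10.1 CPM and at 36.2, 34.02, 26.7 and 32.9 CPM. In each of these genes all 4 high libraries exceeded all 3 low ones. The run C log2 fold changes were 4.58 ± 0.49 for Lgr5, 4.34 ± 0.40 for Lhx2 and 2.57 ± 0.22 for Sox9 (SE; edgeR adjusted p = 0.000474, 0.000237 and 0.000161). These calls were kept in all 5 fits that left out a library.

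Inner root sheath and hair shaft genes were uneven among the high libraries. Of 30 listed genes 12 passed the filter, 4 were counted higher and none lower, and in run C 6 of 22 rose and none fell by edgeR, or 12 and 1 by DESeq2. Krt71, an inner root sheath keratin, was at 1.22, 0 and 0 CPM in the low libraries and at 2.52, 26.3, 0.200 and 33.4 CPM in the high ones. Tchh, encoding trichohyalin, was at 6.85, 3.98 and 5.10 CPM and at 30.9, 104, 4.74 and 101 CPM, and Krt35, a shaft keratin, at 0.245, 0.221 and 0 CPM and at 1.68, 26.7, 0.267 and 19.6 CPM. In all 3 genes 1-year WT replicate 3 and KO replicate 4 were high, KO replicate 2 was intermediate, and KO replicate 3 was within the range of the low libraries or within 0.1 CPM of it. None of the 3 passed in run C (edgeR adjusted p = 0.263, 0.28 and 0.358). Without 1-year KO replicate 3, 15 of 22 listed genes rose and 1 fell in run C, and without KO replicate 4 or WT replicate 3, 3 of 11 rose and none fell. Without either 2-month library 2 of 25 rose and none fell. The follicle keratins Krt79 and Krt17 did not share this pattern, since KO replicate 3 had 223 CPM of Krt79 and 386 CPM of Krt17.

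Sebaceous gland genes were raised in all 4 high libraries. Of 17 listed genes 14 passed the filter, 9 were counted higher and none lower, and in run C 10 of 14 rose and none fell, or 6 without 2-month WT replicate 3. The summed level was 310.5, 307 and 276 CPM in the low libraries and 857, 548, 736 and 639 CPM in the high ones. The median in run B was 2.79 log2 units over 17 genes and 3.17 over 16 with unread genes at the floor. Scd1, which desaturates fatty acids, was at 73.8, 74.4 and 72.4 CPM and at 385, 219, 334 and 244 CPM. Mgst1, a glutathione transferase abundant in the gland, was at 1.10, 0.883 and 0.552 CPM and at 21.5, 9.40, 16.3 and 11.4 CPM. Soat1, which esterifies cholesterol, was at 3.06, 2.43 and 3.45 CPM and at 44.5, 14.3, 20.9 and 15.3 CPM, and Far2, which makes wax alcohols, at 1.59, 2.32 and 1.66 CPM and at 52.5, 14.8, 26.6 and 23.6 CPM. Pparg, the receptor that drives sebocyte differentiation, was at 0.612, 0.221 and 0.276 CPM and at 7.27, 2.49, 8.08 and 6.26 CPM. None of the 5 genes overlapped, and 1-year KO replicate 2 was the highest library in Scd1, Mgst1, Soat1 and Far2. Their run C log2 fold changes were 1.90 ± 0.18, 2.79 ± 0.34, 4.11 ± 0.31, 3.08 ± 0.31 and 3.57 ± 0.63 (SE; edgeR adjusted p = 0.000258, 0.000855, 7.07e-05, 0.000312 and 0.00721). Fasn, the fatty acid synthase that keratinocytes also use, was at 129.6, 125 and 99.4 CPM and at 163, 161, 165 and 193 CPM. Acsbg1, which activates fatty acids, was at 91.9, 91.7 and 87.4 CPM and at 124, 104, 129.6 and 116 CPM. Fasn and Acsbg1 did not pass in run C (edgeR adjusted p = 0.101 and 0.339).

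Cholesterol synthesis, a list chosen after the values were seen and so without weight as evidence, was also higher. Of 19 genes of the pathway 10 were counted higher and none lower, and in run C 12 of 19 were called higher and none lower, or 7 without 2-month WT replicate 3. The summed level was 314, 305 and 329 CPM in the low libraries and 727, 632, 678 and 679.6 CPM in the high ones. Hmgcs1, an early enzyme of the pathway, was at 103, 109 and 119.7 CPM and at 156, 143, 137 and 146 CPM, without overlap, and did not pass in run C (edgeR adjusted p = 0.538).

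Langerhans cell genes were at a low level in the 3 low libraries and the 2-month libraries and several times higher in the 4 high ones. The summed level was 70.5, 61.2 and 97.9 CPM in the low libraries, 453, 264, 451 and 255 CPM in the high ones and 62.1 to 102 CPM in the 6 libraries of 2-month animals. Of 19 listed genes 16 passed the filter, 12 were counted higher and none lower, and the median in run B was 2.79 log2 units. In run C 10 of 17 rose and none fell, or 6 without either of the 2-month libraries. Cd207, which encodes langerin and defines the cell type in epidermis, was at 1.47, 0.442 and 1.66 CPM and at 22.2, 10.6, 17.9 and 8.16 CPM. Cd74, the invariant chain of MHC class II, was at 6.73, 5.08 and 16.96 CPM and at 116, 63.8, 130.0 and 56.2 CPM. The class II gene H2-Ab1 was at 5.38, 3.98 and 13.2 CPM and at 74, 48.9, 75.8 and 36.5 CPM. H2-Eb1, another class II gene, was at 4.28, 5.08 and 14.1 CPM and at 59.3, 25.8, 49.1 and 31.3 CPM. In these 4 genes the 2 highest libraries were 1-year KO replicates 2 and 3, and among the low libraries KO replicate 1 was the highest. Csf1r, the receptor Langerhans cells need, was at 1.84, 1.66 and 1.79 CPM and at 13.4, 4.35, 12.6 and 6.92 CPM. The log2 fold changes of Cd207, Cd74, H2-Ab1, H2-Eb1 and Csf1r in run C were 3.10 ± 0.45, 2.27 ± 0.39, 2.18 ± 0.30, 1.92 ± 0.26 and 2.32 ± 0.48 (SE; edgeR adjusted p = 0.00237, 0.017, 0.00259, 0.0019 and 0.0148). Calls of Cd207 and H2-Eb1 were kept in all 5 fits that left out a library, those of Cd74 and Csf1r were lost without either 2-month library, and that of H2-Ab1 without 2-month KO replicate 3. Epcam, shared by Langerhans cells and follicle keratinocytes, was at 41.9, 34.1 and 28.7 CPM and at 67.98, 61.3, 69.3 and 60.98 CPM.

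T cell transcripts of the high libraries included those of the gamma-delta receptor. Of 17 genes shared by T cells 11 passed the filter, 8 were counted higher and none lower, and in run C 8 of 12 rose and none fell, or 5 without 2-month KO replicate 3. Cd3e was at 0.122, 0.331 and 0.276 CPM in the low libraries and at 3.50, 4.41, 4.41 and 6.19 CPM in the high ones. In run C the 2 libraries of 2-month animals held 3 reads of Cd3e. It passed the filter there only through the 1-year libraries, so no fold and no test is given. Il2rb, a chain of the interleukin-2 and interleukin-15 receptors, had no read in the 3 low libraries and was at 2.52, 1.98, 1.94 and 3.35 CPM in the high ones. Thy1, a surface protein that fibroblasts also carry, did not follow the list. It was at 12.5, 16.5 and 19.4 CPM in the low libraries and at 15.7, 4.35, 5.54 and 6.05 CPM in the high ones, so that all 3 high libraries of run C lay under the low ones, and it did not pass within run C (edgeR adjusted p = 0.555).

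Of 23 listed genes of dendritic epidermal T cells 9 passed the filter, 6 were counted higher and 1 lower, and in run C 7 of 13 rose and 1 fell, or 3 and 1 without 2-month WT replicate 3, 5 and none without 2-month KO replicate 3 and 6 and none without 1-year WT replicate 3. Of the 6 counted higher, Trdc, Trdv4, Tcrg-C1, Klrk1 and Ctla2a were below 1 CPM in each low library and passed the filter through the high ones. Trdv4, the variable delta segment used by these cells, had no read in any low library. In the high ones it had 1.12, 1.02, 1.67 and 2.62 CPM, from 8, 16, 25 and 36 reads. Tcrg-C1, a constant gamma segment, was at 0.122, 0 and 0.138 CPM and at 2.66, 3.33, 2.40 and 2.33 CPM. Itgae, the CD103 integrin that holds T cells in epithelium, was at 1.96, 1.22 and 1.10 CPM and at 4.90, 7.67, 6.28 and 3.21 CPM. These genes were high in all 4 high libraries and below 2 CPM in the low ones. In the 2-month libraries of run C, Trdv4 had no read and Tcrg-C1 had 4 and 1 reads. Both passed the filter there only through the 1-year libraries, so no test of them is given. Itgae passed in run C (edgeR adjusted p = 0.00948), a call that was lost without 2-month WT replicate 3. Ifitm10, on the same list, ran against it, at 41.4, 43.2 and 21.5 CPM in the low libraries and 8.25, 17.8, 20.9 and 13.1 CPM in the high ones. The summed level of the list overlapped (82.6, 77.5 and 55.8 CPM against 65.7, 81.4, 79.1 and 73.1 CPM), and Ifitm10 and Gem (29.4, 25.3 and 23.7 CPM against 33.7, 29.8, 29.3 and 31.1 CPM) make up much of it.

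Genes of alpha-beta T cells were not counted on either side. Of 11 listed genes 2 passed the filter, and in run C 0 of 5 passed the edgeR test, with 1 at an unadjusted p under 0.05 and 0 called by DESeq2. Trac, the constant alpha segment, had 0, 0 and 1 reads in the low libraries and 8, 0, 0 and 3 reads in the high ones. Trbc2 was at 2.20, 0.883 and 2.34 CPM and at 1.96, 6.08, 2.67 and 2.04 CPM, and Trbc1 at 0.490, 0 and 0.414 CPM and at 0, 0.831, 0.668 and 3.42 CPM, both with overlap (edgeR adjusted p in run C = 0.547 and 0.157). Trbc2 had 8 to 95 reads in every 1-year library, well above a count of 0. Where a library holds 0 reads, up to 3 reads per library remain possible, between 0.259 and 0.396 CPM (without TMM factors) in the 1-year libraries.

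Few genes of other immune lists passed the filter. Of 16 genes of dermal macrophages and mast cells 2 passed the filter and both were counted higher: Adgre1, which Langerhans cells also express, at 0.979, 0.110 and 0.689 CPM and at 1.68, 1.73, 3.67 and 2.04 CPM, and Kit, which melanocytes also express, at 0.734, 1.32 and 0.689 CPM and at 2.38, 2.11, 3.14 and 3.71 CPM. The complement gene C1qa, which marks macrophages, was at 0.979, 0.442 and 0.276 CPM and at 1.12, 1.28, 0 and 0 CPM, and C1qb at 0.734, 0.442 and 0.689 CPM and at 1.26, 0, 0.0670 and 0.291 CPM. In run C 1 of 4 rose, Kit (edgeR adjusted p = 0.0113), or none without either 2-month library and 2 without 1-year WT replicate 3 or KO replicate 4. No gene of 10 for B cells and granulocytes passed the filter in the 7 libraries. In run C 1 of 2 was called higher, the granulocyte gene S100a9. It had no read in either library of 2-month animals and 16, 5 and 20 reads in 1-year WT replicate 3, KO replicate 3 and KO replicate 4. It passed the filter only through these 1-year libraries, so no p-value is given. That call was lost without either 2-month library and with genotype as a term, and without 1-year WT replicate 3 or KO replicate 4 the gene did not pass the filter. It had no read in the run B libraries.

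**Figure D3:**
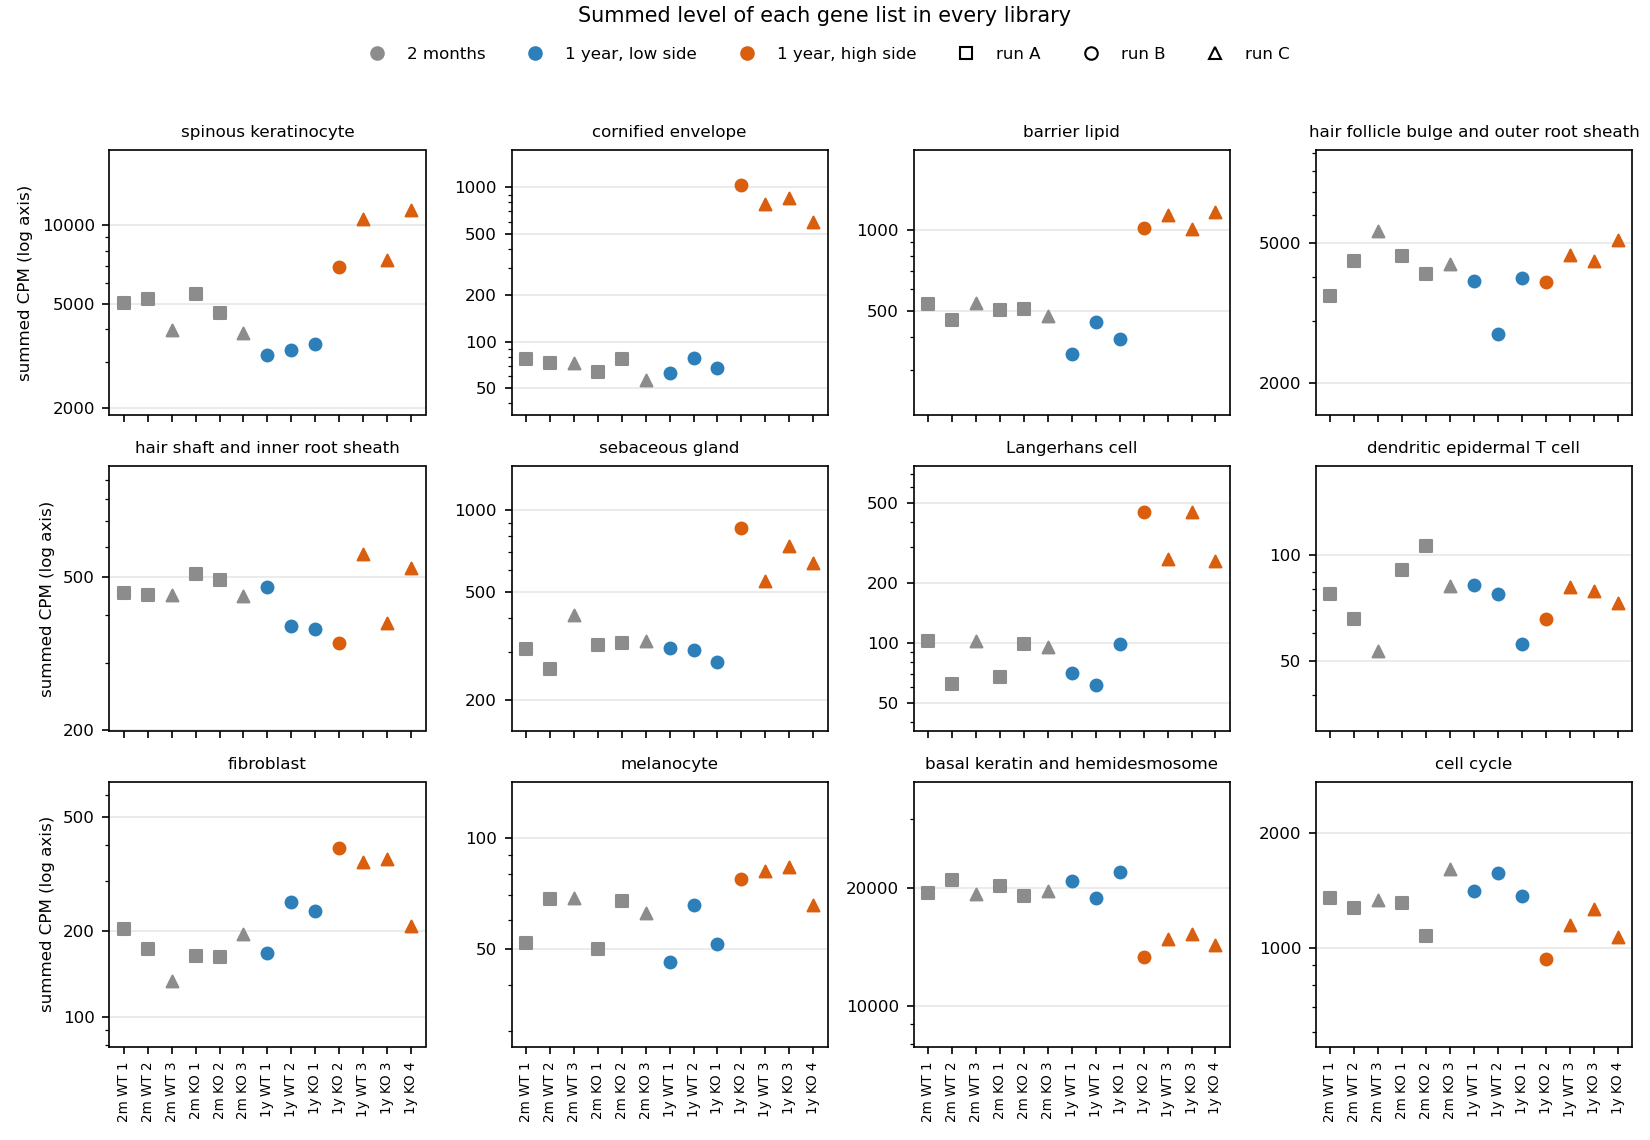
Each panel gives the summed CPM of a gene list in every library on a log axis, with 2-month libraries in grey, low 1-year libraries in blue and high ones in orange, and with the run as the marker shape. Spinous, cornified, barrier lipid, sebaceous and Langerhans sums are above all low and 2-month libraries in each of the 4 high libraries, the basal sum is below them, and the hair shaft and fibroblast sums are uneven among the 4.

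Fibroblast genes were only partly represented. Of 28 listed genes 19 passed the filter, 8 were counted higher and none lower, and in run C 8 of 24 rose and none fell, or 4 and 3 without 2-month KO and WT replicate 3. Vim, an intermediate filament protein of mesenchyme that Langerhans cells and T cells also express, was at 7.47, 6.41 and 9.79 CPM and at 55.7, 28.97, 41.2 and 38.7 CPM. Sparc, a matrix protein of fibroblasts, did not follow the list. It was at 24.7, 17.8 and 23.9 CPM and at 26.6, 14.2, 7.75 and 8.01 CPM, with all 3 high libraries of run C under the low ones, and did not pass within run C (edgeR adjusted p = 0.359). Timp2, a metalloproteinase inhibitor, was at 6.98, 5.96 and 11.03 CPM and at 33.3, 15.99, 23.2 and 18.2 CPM. The fibrillar collagens that define fibroblasts were uneven. Col1a1 was at 0.734, 0.663 and 0.827 CPM in the low libraries and at 0.839, 40.2, 1.27 and 1.02 CPM in the high ones, Col1a2 at 0.367, 0.442 and 0.965 CPM and at 2.66, 36.1, 2.81 and 1.89 CPM, and Col3a1 at 0.367, 0.663 and 0.276 CPM and at 1.82, 25.8, 2.40 and 1.24 CPM. In each, 1-year WT replicate 3 stood far above the other high libraries, which were at most 2.81 CPM. Those others lay above the low ones in Col1a2 and Col3a1. For Col1a1, 1-year KO replicate 2 (0.839 CPM) was level with the low library KO replicate 1 (0.827 CPM). None of the 3 genes passed in run C (edgeR adjusted p = 0.335, 0.257 and 0.33). Vim and Timp2 rose in run C by 2.93 ± 0.28 and 2.46 ± 0.25 log2 units (SE; edgeR adjusted p = 0.000262 and 0.000318), and were kept in all 5 fits that left out a library, 1-year WT replicate 3 included. The difference of Col6a2, for which no test is given, was 5.19 ± 0.63 log2 units (SE). Postn, a matrix protein, was at 51.4, 119 and 108 CPM and at 172, 87.6, 177 and 60.8 CPM and overlapped.

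Transcripts of some melanocyte genes and of red cells were a small part of the extra set. Dct, a pigment enzyme, was at 0.490, 0.110 and 0.414 CPM in the low libraries and at 8.67, 6.71, 2.07 and 4.37 CPM in the high ones, and rose in run C by 3.97 ± 0.74 log2 units (SE; edgeR adjusted p = 0.00905), a call lost without 2-month WT replicate 3. Of 8 melanocyte genes that passed the filter, Dct and Kit were counted higher. The hemoglobin chain Hba-a2 was at 1.22, 1.10 and 0.552 CPM and at 6.29, 19.8, 18.2 and 26.2 CPM, and Hbb-bs at 0.612, 0.442 and 0.552 CPM and at 5.46, 6.46, 8.41 and 14.5 CPM. Alpha globin genes are near-identical copies, so reads may be split among them. Hba-a2 had a run C log2 change of 4.65 ± 0.32 (SE; edgeR adjusted p = 4.41e-05). Hbb-bs had no read in the 2-month libraries of run C and passed the filter there only through the 1-year ones, so no test of it is given. Of 20 endothelial and mural genes 10 passed the filter and none was counted. Lpl, on the adipocyte list, was at 0.490, 0.663 and 0.414 CPM and at 22.1, 4.35, 7.41 and 10.6 CPM, whereas the adipocyte marker Fabp4 was at 0, 0.110 and 0 CPM and at 1.68, 1.85, 0.334 and 0.146 CPM.

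Slc17a6, a glutamate transporter of neurons on the Merkel cell list, differed by run. It was at 6.73, 5.85 and 8.82 CPM in the low libraries and at 6.16, 0.384, 0.0670 and 0.0730 CPM in the high ones, so that the 4 libraries of run B were high and the other 1-year libraries were near 0. The part of the run in this gene was not tested.

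Immediate early genes were uneven. These genes respond within minutes to stress and to tissue digestion. Of 20 listed genes 2 (Egr2 and Egr3) were counted higher (10%, beside 5.66% of all genes) and none lower. In run C 14 of 20 rose, beside 7.68% of all genes, and none fell. Fewer rose without either 2-month library, and 9 rose without 1-year KO replicate 4. Fos, a subunit of AP-1, was at 135, 439 and 237 CPM in the low libraries and at 312, 575, 232 and 549 CPM in the high ones. Junb was at 70.2, 129 and 113 CPM and at 124, 184, 101 and 222 CPM. Both overlapped between sides, with 1-year WT replicate 1 the lowest of the low and KO replicate 3 the lowest of the high libraries. The summed level was 1036, 2624 and 1799 CPM and 2217, 3243, 1751 and 3634 CPM.

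Some genes of inflamed or wounded keratinocytes were higher. Of 24 listed genes 13 passed the filter, and 3 of these were counted higher (23.1%, beside 5.66% of all genes) and none lower. Summed over the list, levels were 379.5, 452 and 480.0 CPM in the low libraries, 528, 507, 515 and 557 CPM in the high ones and 415 to 573 CPM in the libraries of 2-month animals, so the sides did not overlap but the 2-month range covers the high one. The 3 genes were Cxcl14, a chemokine of normal epidermis (13.1, 9.39 and 12 CPM against 47, 35.3, 42.7 and 26.4 CPM), and the growth factors Areg (0.490, 3.09 and 1.93 CPM against 6.43, 5.37, 5.08 and 7.79 CPM) and Ereg (0.367, 0.442 and 0.138 CPM against 6.16, 4.86, 5.21 and 12.2 CPM). Nfkbia, an inhibitor of NF-kappaB, was at 83.96, 119 and 116 CPM and at 133, 137, 123 and 186 CPM, and the skin chemokine Ccl27a at 72.3, 106 and 113 CPM and at 139, 145, 156 and 132 CPM. Both lay higher without overlap and did not pass in run C (edgeR adjusted p = 0.144 and 0.0629), where the difference of Ccl27a was negative (-0.43 ± 0.13 log2 units, SE). In run C 4 of 18 rose, Cxcl14, Areg, Ereg and the growth factor Hbegf, and 1 fell, or 2 and 1 without 2-month WT replicate 3. Il1r2, a decoy receptor for interleukin-1, ran the other way, at 109, 104 and 109 CPM and at 70.9, 67.8, 69.3 and 60.1 CPM, and its run C log2 fold change was -1.27 ± 0.12 (SE; edgeR adjusted p = 0.000235). Of 22 interferon response genes 9 passed the filter and none was counted, and in run C 2 of 12 fell, or 1 without 2-month WT replicate 3 or 1-year WT replicate 3.

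Basal keratins and hemidesmosome genes were lower in the high libraries. The summed level of 13 genes was 20848, 18876 and 21941 CPM in the low libraries, 13336, 14838, 15263 and 14277 CPM in the high ones and 19077 to 20915 CPM in the libraries of 2-month animals. In 9 of the 13 all 4 high libraries lay under all 3 low ones, beside 9.54% of all genes. The median was -0.67 log2 units in run B, and Itga2 alone reached the limit of 1 log2 unit. In run C 7 of 13 fell and none rose, with 2.79% of all genes called lower. Of these 7 calls none was left without 1-year WT replicate 3 or without 2-month WT replicate 3, and 3 were left without 2-month KO replicate 3 or with genotype as a term.

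Krt5 was at 6379, 4895 and 6677 CPM in the low libraries and at 4084, 4104, 4449 and 3992 CPM in the high ones, and Krt14 at 4477, 3997 and 6274 CPM and at 2992, 3578, 3599 and 3564 CPM. Neither passed in run C (edgeR adjusted p = 0.2 and 0.467), with log2 fold changes of -0.34 ± 0.16 and -0.19 ± 0.15 (SE), beside -0.37 ± 0.15 for Col17a1. The integrin chain Itga6 was at 582, 605 and 484 CPM and at 345, 385, 397 and 338 CPM, and its partner Itgb4 at 508, 398 and 391 CPM and at 254, 275, 316 and 275 CPM. Dst, the hemidesmosome linker dystonin, was at 3798, 4133 and 3883 CPM and at 2466, 2296, 2369 and 2336 CPM. In all of these genes every high library was below every low library. The run C log2 fold changes of Itga6, Itgb4 and Dst were -0.52 ± 0.13, -0.68 ± 0.12 and -0.72 ± 0.16 (SE; edgeR adjusted p = 0.0289, 0.00809 and 0.019). Itga2, the collagen receptor chain alpha2, was at 78.4, 84.5 and 75.3 CPM and at 32.7, 47.5, 51.6 and 36.8 CPM, with a log2 change in run C of -0.74 ± 0.15 (SE; edgeR adjusted p = 0.0143). Each of these calls was lost without 2-month WT replicate 3 and without 1-year WT replicate 3, and that of Itga6 also without 2-month KO replicate 3.

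Part of the basement membrane genes made by keratinocytes was lower. Of 25 listed genes 23 passed the filter, and 3 were counted lower and 2 higher, beside 1.38% and 5.66% of all genes. The 7-library sides were apart in the lower direction in 7 of the 23 and in the higher direction in 3, beside 9.54% and 12.3% of all genes. In run C 11 of 24 fell and 3 rose, beside 2.79% and 7.68% of all genes. Without 2-month KO replicate 3, 7 fell and 1 rose, without 2-month WT replicate 3, 8 and 1, and without 1-year WT replicate 3, 10 and 1. Col7a1, the anchoring fibril collagen, was at 109, 92.8 and 86.7 CPM in the low libraries and at 46.02, 63.6, 58.97 and 52.1 CPM in the high ones, and fell in run C, where its log2 change was -1.35 ± 0.13 (SE; edgeR adjusted p = 0.000314). Col4a6, a collagen IV chain, was at 81.5, 85.7 and 72.7 CPM and at 39.4, 57.3, 61.7 and 48.3 CPM. Efemp1, the fibulin-family protein fibulin-3, was at 75.4, 119 and 86.5 CPM and at 45.9, 45.02, 67.2 and 55 CPM. These 3 genes, with Lama3 and Agrn, kept their lower call in all 5 fits that left out a library. The laminin chains Lama3 and Lamb3 were lower in the high libraries. Lama3 was at 246, 246 and 249 CPM and at 171, 154, 162 and 136 CPM, and Lamb3 at 242, 218 and 230.1 CPM and at 139, 176, 177 and 172 CPM. Agrn, a heparan sulfate proteoglycan, was at 243, 182 and 205 CPM and at 114, 147, 149.7 and 146 CPM. Fras1 and Fbln1 ran against the list. Fras1, a matrix protein that links epidermis and dermis, was at 2.08, 2.65 and 3.17 CPM and at 9.51, 4.73, 5.41 and 8.09 CPM, and Fbln1 at 1.84, 3.09 and 3.72 CPM and at 7.97, 7.67, 9.62 and 9.98 CPM. Fbln1 encodes fibulin-1, a relative of fibulin-7, and its run C log2 fold change was 2.14 ± 0.32 (SE; edgeR adjusted p = 0.00314).

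Stem cell genes of the epidermis showed no common direction. Of 16 listed genes 15 passed the filter. Sox9 and Dkk3, both also follicle genes, were counted higher (13.3%, beside 5.66% of all genes) and none lower. Lgr6, a receptor of interfollicular and upper follicle stem cells, was at 119, 127 and 102 CPM and at 81.3, 76.4, 92.9 and 72.1 CPM without overlap, and its run C log2 fold change was -0.65 ± 0.13 (SE; edgeR adjusted p = 0.0139), a call that was lost without 2-month WT replicate 3 or 1-year WT replicate 3. Igfbp3 (227, 170.3 and 205 CPM against 125, 283, 138 and 226 CPM), Ly6a (28.3, 32.2 and 54.2 CPM against 18.2, 27.6, 24.8 and 33 CPM) and Sostdc1 (34.02, 20.1 and 38.5 CPM against 37.4, 28.5, 37.1 and 31.04 CPM) overlapped.

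Part of the cell cycle genes was lower on the high side, where 1-year KO replicate 2 had the lowest sum. Summed over the list, levels were 1409, 1570.2 and 1371 CPM in the low libraries and 933, 1150.2, 1265 and 1065 CPM in the high ones. Of 35 listed genes 34 passed the filter, and 11 lay lower without overlap, beside 9.54% of all genes. Of the 34, 5 were counted lower, beside 1.38% of all genes, and none higher. In run B alone 10 were lower, beside 4.33% of all genes, with a median of -0.82 log2 units. In run C 4 of 34 fell and 1 rose, beside 2.79% of all genes called lower and 7.68% called higher. None fell without 1-year WT replicate 3 or 2-month KO replicate 3, and 2 fell without 2-month WT replicate 3 or with genotype as a term. Mki67, a protein of dividing cells, was at 129, 203 and 141 CPM in the low libraries and at 70.9, 127, 116 and 100.1 CPM in the high ones. Mcm2, a replication licensing factor, was at 64.3, 60.2 and 67.4 CPM and at 29.7, 49.8, 41.5 and 42.6 CPM. E2f1, the transcription factor of the S phase, was at 5.88, 8.28 and 7.58 CPM and at 1.54, 5.76, 4.74 and 5.46 CPM. No high library overlapped a low one in these genes, and 1-year KO replicate 2 was the lowest in each. In run C, Mki67 and E2f1 did not pass (edgeR adjusted p = 0.99 and 0.389), with log2 fold changes of -0.01 ± 0.19 and -0.40 ± 0.27 (SE). Mcm2 had an edgeR adjusted p of 0.049, which was lost when any 1 of the 5 libraries was left out. Over the 6 libraries of 2-month animals Mki67 ranged from 87.9 to 208 CPM, which overlaps both sides. Pcna, the replication clamp, overlapped, at 39.04, 60.7 and 57.6 CPM and at 25.3, 40.2, 46.1 and 48.1 CPM. Cdkn1a, the cell cycle inhibitor p21, was the member that rose in run C. It was at 15.5, 17.3 and 19.7 CPM in the low libraries and at 33.2, 59.9, 45.2 and 68.5 CPM in the high ones, with a log2 change in run C of 1.31 ± 0.21 (SE; edgeR adjusted p = 0.00443), kept in all 5 fits that left out a library.

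**Figure D4:**
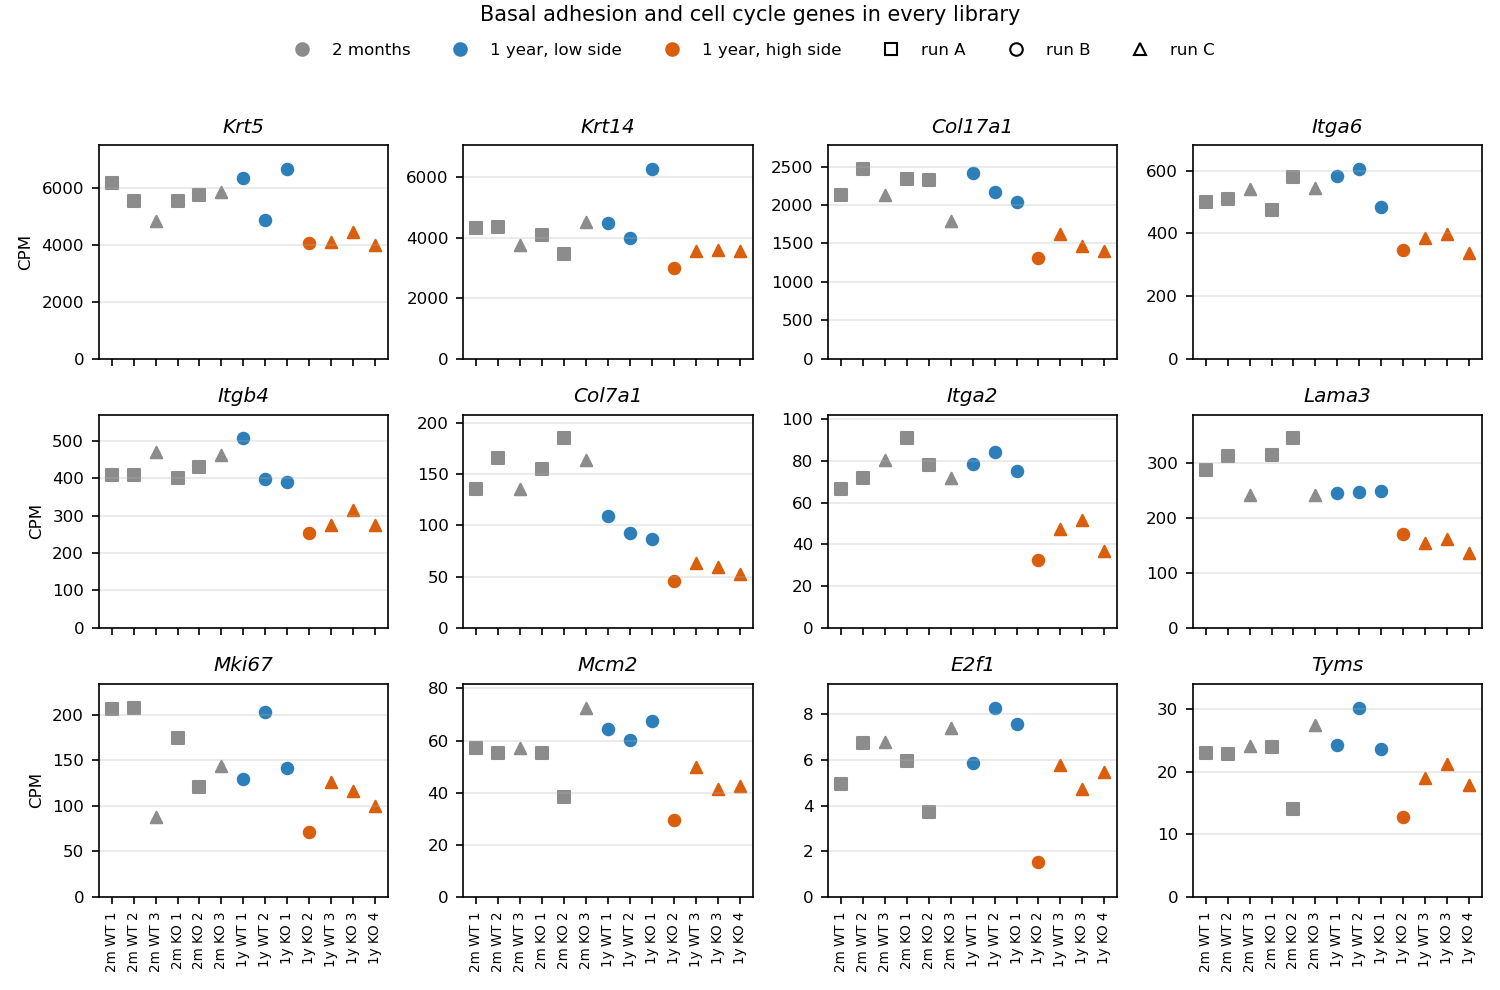
Points give CPM of 8 basal keratin, adhesion and basement membrane genes and 4 cell cycle genes in each library, on axes that start at 0, with colours for age and side and marker shapes for the run. The 4 orange points lie below the 3 blue ones in every panel, and for the 4 cell cycle genes the grey 2-month points overlap both sets.

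Outside the lists, the 10 genes of largest higher difference were these. Crct1, a gene of the epidermal differentiation complex, was at 0, 0.331 and 0.276 CPM and at 12.6, 10.3, 10.5 and 6.85 CPM, and Calml3, a calmodulin-like protein of epithelium, at 1.22, 1.77 and 1.52 CPM and at 56.2, 29.8, 35.3 and 27.5 CPM. Lypd5 was at 0.857, 1.77 and 0.276 CPM and at 28.1, 18.2, 27.6 and 21.3 CPM, and Nccrp1 at 0.122, 0.663 and 0.138 CPM and at 9.65, 9.79, 12.02 and 8.67 CPM. Cytip, a protein of activated leukocytes, was at 0.122, 0.552 and 0.276 CPM and at 15.5, 5.56, 15.1 and 5.75 CPM. Cers4, a ceramide synthase, was at 1.96, 1.44 and 3.03 CPM and at 55.5, 23.7, 31.2 and 18.7 CPM. Angptl7 was at 0.734, 0.110 and 0.138 CPM and at 13.01, 7.36, 10.6 and 15.4 CPM, and Grem1, an antagonist of bone morphogenetic proteins, at 0.122, 0.883 and 0.414 CPM and at 12.6, 3.58, 14.3 and 8.16 CPM. Akr1c18 (0.734, 0 and 0.552 CPM against 16.5, 3.65, 12.8 and 5.25 CPM) and Wfdc21 (0.245, 0.883 and 0.276 CPM against 12.3, 6.27, 12.8 and 8.09 CPM) were the other two. These genes were chosen for a difference that needs the 1-year libraries of run C to be high, so their calls in run C are not given.

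Among genes of largest lower difference outside the lists, 2 of 10 also fell in run C. Bmp1, a procollagen protease, was at 38.3, 27.3 and 33.1 CPM in the low libraries and at 9.09, 17.8, 23.5 and 14.1 CPM in the high ones, and its run C log2 fold change was -1.27 ± 0.20 (SE; edgeR adjusted p = 0.00423). Cmss1 was at 1515, 1240.1 and 2446 CPM and at 269, 294, 309 and 605 CPM, but at 1131 to 8095 CPM over the 2-month libraries, and its run C call was lost without either 2-month library. Rab26os, an antisense transcript whose reads cannot be told from its partner's if counting ignored strand, had 18.4, 15.5 and 23.7 CPM in the low libraries, 0 reads in 1-year KO replicate 2 and up to 5.01 CPM in the other high libraries. Others were Zwilch (6.85, 6.41 and 8.55 CPM against 1.26, 4.48, 5.68 and 5.83 CPM) and Wdr62 (11.6, 15.1 and 13.7 CPM against 4.06, 9.40, 7.81 and 4.66 CPM), which act in mitosis, and Mst1, Arhgap22, Pls1 and Cwh43. In run C the edgeR adjusted p of the 8 that did not pass lay between 0.0996 (Mst1) and 0.722 (Zwilch), and Rab26os and Cwh43 differed in the opposite direction there (0.86 ± 0.38 and 0.57 ± 0.21 log2 units, SE). These 10 genes were chosen by the same 1-year libraries, so their run C values are a description.

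Each side held libraries of both genotypes. The high side had 3 libraries labelled KO and 1 labelled WT, and the low side 1 and 2, which is given with no test because the sides were formed from the data. Fbln7 (chromosome 2, 128862981 to 128897034, plus strand) had 19, 14 and 38 reads in the libraries labelled 1-year WT replicates 1, 2 and 3 and 9, 10, 28 and 0 reads in those labelled KO replicates 1 to 4, so whole-gene reads do not check the label. The log2 difference of Fbln7 was -0.91 ± 0.85 (SE, KO minus WT; edgeR adjusted p = 0.828). With run as a term, KO against WT at 1 year called 0 of 14379 genes (0.0%) by edgeR at an adjusted p under 0.05, with a smallest adjusted p of 0.801. At an unadjusted p under 0.05 there were 814 genes, 441 higher and 373 lower, and DESeq2 called 7 genes. The log2 differences of the 5 marker genes were 0.13 ± 0.27 for Krt1, 0.34 ± 0.32 for Krt10, 1.37 ± 0.94 for Cd3g, 1.18 ± 0.67 for Col6a2 and -0.34 ± 0.17 for Col17a1 (SE, KO minus WT), with edgeR adjusted p-values from 0.801 to 0.921.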

How the data were processed

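Total RNA sequencing of sorted back skin epidermal stem cells gave 1 table per library, with 3 deposited measures per gene. Total gene reads are whole counts deposited without normalization. TPM and RPKM were computed by the authors, per the file headers, and RPKM was not used. The genome build was mm10, per the submitters' processing notes, and gene positions come from GENCODE M21 (GRCm38). The aligner, the counting program, the annotation and the use of strand are not given in the sources used here.

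Counts were scaled with TMM over 13 libraries and tested in edgeR 4.0.16 (quasi-likelihood, robust; filterByExpr minimum count 10; R 4.3.3), with Benjamini-Hochberg adjustment over all genes tested and a threshold of 0.05. SE is that of the log2 fold change. Log2 CPM used a prior count of 2. DESeq2 1.42.0, other scalings and filters, the deposited TPM, a genotype or replicate term and leaving out each library were the alternatives. Scripts were tested on simulated data. A count of 0 was taken to allow 3 reads, and such floors cover counting error only.

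The members, the sides and the 28 gene lists were chosen with earlier results of these data known, and 2 further lists (sterol synthesis, homologous recombination repair) after the values were seen. By rule the text names Fbln7, the 5 markers, up to 4 members of highest mean TPM per list, members that ran against their list and the 10 higher and 10 lower genes of largest difference outside the lists. All other genes named were chosen after their values were seen, and some genes are not reported here.

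Libraries with the same replicate number at 1 year deviated together from their genotype means (correlation over genes 0.626, 0.233 and 0.578 for numbers 1, 2 and 3). Numbers 1 and 2 share run B and number 3 run C, and only for numbers 1 and 3 was the same number the best partner. Counts of replicates at 1 year all differed by more than sampling noise, with chi-square values of 16.9 to 171 per degree of freedom.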

Additional observations from a re-analysis of the deposited data

Results flagged for a closer look

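Within the 4 libraries labelled KO at 1 year, 4 of 35 values screened with Dixon's gap test held a library far from the others. Each was 1-year KO replicate 1, the only low library of that group. Chance flags about 1 in 20 groups, but this library was placed on the low side by its own values, so the first 3 values below are a description and are not set against that rate. The values are mean log2 CPM of a gene list. For barrier lipid genes it was at 2.82, with the others between 4.28 and 4.49. For hair follicle bulge and outer root sheath genes it was at 3.19, with the others between 4.81 and 4.88, and for sterol synthesis genes at 3.42, with the others between 4.53 and 4.56. For interferon response genes it was the highest, at 1.15, with the others between 0.224 and 0.365. The other low libraries, labelled WT, had interferon scores of 0.328 and 0.408, so this value does not follow the side.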

How the results depend on the processing

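Scaling with DESeq2 size factors or upper quartile factors left the counts over all genes within 1.5 times their values where run, and shifted the median of all genes by under 0.1 log2 units. Without the filter on low counts, run B gave 2837 genes higher and 1197 lower, the 7-library comparison 1548 and 492, and run C 1684 and 881. On the deposited TPM scale (pseudocount 1) run B gave 510 and 219 and the 7 libraries 433 and 23. Leaving out 1 library gave 1121 to 1199 higher and 617 to 700 lower in run B, 777 to 1122 and 216 to 369 over the 7 libraries, and 421 to 1408 and 104 to 575 in run C. Run B and the 7-library difference have no value without 1-year KO replicate 2. Genotype as a term gave 841 and 240 in run C, and DESeq2 1579 and 571. By list, DESeq2 in place of edgeR moved the genes higher in run C from 6 to 12 for hair shaft and inner root sheath, 1 to 3 for Schwann cells and nerve and 1 to 2 for both macrophages and endothelium, and those lower from 4 to 7 for the cell cycle, 1 to 2 for recombination repair, differentiation factors and inflammation and 0 to 1 for hair shaft. For KO against WT, DESeq2 called 7 genes and the fit without the filter 52, while leaving out any 1 of the 7 libraries gave 0. With the replicate block in place of the run term it also called 0 genes, so the block changed no call. No paired analysis was possible in run C because its age groups share only number 3.

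Over all alternatives, 1058 of 1218 refits of named genes called in run C kept their side of the threshold and 160 lost it. In run B, 690 of 800 values of named genes moved by less than the spread and 110 by more. The median of the Schwann cell and nerve list went from 0.03 to -0.0048 log2 units on the TPM scale. The cause of these shifts was not tested. Leaving an age group of run C with 1 library assumes that it varies like the other group. Most genes of alpha-beta T cells, macrophages, B cells and granulocytes did not pass the filter at this depth, and few reads and few cells cannot be told apart there.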

Other observations

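Genes of homologous recombination repair, a list chosen after the values were seen, were lower in 1-year KO replicate 2. Of 30 genes 11 were counted lower within run B, beside 4.33% of all genes, and none higher, with a median of -0.83 log2 units. Over the 7 libraries 7 were counted lower, beside 1.38% of all genes. In run C 1 of 30 was called lower, beside 2.79% of all genes. That call was lost without either 2-month library or 1-year WT replicate 3. Without 1-year KO replicate 3, 2 were called lower, and without KO replicate 4, 3 were. Brca2, which acts in the repair of broken DNA, was at 25.3, 33.5 and 18.9 CPM in the low libraries and at 11.1, 14.8, 14.2 and 13.7 CPM in the high ones. Brca1 was at 16.4, 26.9 and 16.1 CPM and at 6.43, 16.3, 16.4 and 13.99 CPM, where 1-year WT replicate 3 and KO replicate 3 lay within the range of the low side. Summed over the list, the levels were 373, 512 and 414 CPM and 237, 299, 314 and 269.6 CPM.

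Tyrp1, a pigment enzyme, was at 0.122, 0.552 and 0.138 CPM in the low libraries and at 0.280, 4.03, 1.80 and 2.77 CPM in the high ones, so that 1-year KO replicate 2 lay within their range. Piezo2, the touch channel of Merkel cells, was at 0.979, 0.442 and 0.965 CPM and at 1.82, 2.94, 2.27 and 7.94 CPM, highest in 1-year KO replicate 4.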
